A study of Zea mays with 42 samples.

Results

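Root of the maize inbred line B73 was set against the other vegetative and floral tissues of the same series. The members of the comparison are the 3 root arrays and the 15 arrays of leaf, stem, stem tip, ear and silk, 18 of 42 arrays in all. The other 24 arrays hold embryo and endosperm. They enter only descriptive values and the alternative fits over all 42 arrays, not the main test. Root, leaf, stem and stem tip were taken at the big trumpet stage, late in vegetative growth, and ear and silk before pollination, so that tissue and stage cannot be told apart for the last pair. Every plant was untreated B73, and each tissue was sampled as 3 biological replicates. The labels say nothing of the root zone or of the number of plants in a sample. The question is which transcripts set the root apart from the shoot and the female flower.

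The root takes up water and mineral ions and holds no working chloroplasts. Nitrate enters root cells through high-affinity transporters of the NRT2 family, and grasses collect iron by releasing phytosiderophores, which are built from nicotianamine. Water crosses root membranes through aquaporins, channel proteins of the plasma membrane (PIP) and of the vacuole (TIP). Cells of the root cylinder reinforce their walls with cellulose and lignin, and maize roots are known for terpenoid and other defence compounds kept against soil organisms.

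Each transcript was read by a probe set, a group of short oligonucleotides, and summarized as a MAS5 signal on a linear intensity scale. A probe set was called higher or lower in root when limma gave an adjusted p under 0.05 and the fold against the mean of the 5 other tissues was at least 2. Arrays have no read depth, and the 3 arrays per tissue limit the precision of every value. Where the mean of a side lay under a signal of 100, the fold is for many genes also given as a lower bound, with signals under 100 taken as 100. Other folds with such a side are printed without a bound, and their size is uncertain. In bulk tissue a lower signal from fewer cells of a type and from less RNA per cell cannot be told apart.

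The root label was checked against marker genes. The summed signal of 7 root marker probe sets (those of zrp4, nrt2, nas1 and nas2) was 3026, 9617 and 12119 on root replicates 1, 2 and 3, against 580 to 3448 on the 15 other arrays. Of these 7, 6 reached a signal of 100 on some root array, and nas2 stayed between 12.6 and 17.9 there. The 13 leaf marker probe sets summed to 3364 to 8394 in root and to 15586 to 163889 in the other tissues. The 6 floral probe sets summed to 411 to 632 in root, against 174 to 14674. Sums of 2 shoot meristem, 17 endosperm and 3 embryo marker probe sets on root arrays lay within the range of the other arrays. The 2 meristem markers went opposite ways, with kn1 called lower in root (log2 fold -3.15) and lg3 called higher (1.46). The floral sum likewise held zmm2, which was called higher in root (4.71). The meristem and floral sums are therefore weak checks of the label. The leaf marker sum thus lay below every other array on all 3 root arrays, and the root marker sum above every other array on replicates 2 and 3 but not 1. Root replicate 1 stood apart in other ways. It correlated with its replicates at r = 0.929 and 0.931 over log2 signals, whereas replicates 2 and 3 correlated at 0.985. The results it touches are given with and without it. The SE and p-value of each fold rest on a variance pooled over the 6 tissues. Root had the widest replicate spread (median SD of log2 signal 0.29, against 0.14 in leaf to 0.24 in silk). Where replicate 1 departs far from the others, the printed SE and p-value can thus overstate the precision. The log2 ratio of 3′ to 5′ signal of the ef1a control was 1.62 to 2.04 in root and 0.73 to 6.92 in the other tissues, with the highest values in ear and silk. The control named gapdh put root above all other arrays (1.07 to 1.45, against -0.41 to 0.98). The control named actin read 0.73, 1.21 and 2.27 on root replicates 1, 2 and 3, against 1.54 to 3.57 elsewhere. A separate control, named Actin, read -6.14, -4.82 and -5.62 on root replicates 1, 2 and 3, against -5.79 to -2.03 elsewhere. Those named Cyph, Gapdh and Ubiquitin put root within the range of the other tissues. Only the ef1a ratio had its part in the results tested, and only as a covariate.

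Against the mean of the 5 tissues, 1963 probe sets (11.1% of 17621) were called higher in root and 2261 (12.8%) lower. The root arrays lay above all 15 others in 689 of the higher calls (3.91% of all probe sets) and below all of them in 748 of the lower calls (4.24%). Called or not, 916 probe sets (5.2%) had all root arrays above and 1005 (5.7%) below. The median log2 fold over all probe sets was -0.05. Calls of at least 4-fold numbered 852 higher and 735 lower. Without root replicate 1 the counts were 1909 higher and 2030 lower, of which 1642 and 1827 were among the calls made with it, and no call changed direction. Set against single tissues, root had 2647 probe sets higher and 2047 lower than leaf (15.0% and 11.6%), 2021 and 2633 than stem (11.5% and 14.9%), 2594 and 2800 than stem tip (14.7% and 15.9%), 2509 and 3359 than ear (14.2% and 19.1%), and 2072 and 2383 than silk (11.8% and 13.5%). These contrasts share the root arrays. Which direction held more calls depended on the scaling between arrays. With arrays centred on their medians the counts against the mean were 2239 higher and 1986 lower, and centred on hybridization controls 1760 and 2562. Against single tissues, centring on hybridization controls gave 1221 higher and 4787 lower against stem, 1831 and 4521 against stem tip, and 2480 and 1806 against silk, and centring on medians 2542 and 2097 against stem, and 3166 and 2769 against ear. A call in the same direction against all 5 tissues was made for 492 probe sets higher (2.79%) and 441 lower (2.5%). In 326 of the 492 the root arrays also lay above all 24 seed arrays (66.3%), and in 192 of the 441 below all of them (43.5%). The matching shares over all probe sets are not given here. The seed arrays also had lower trimmed mean signals (894 to 1076, against 1219 to 1224 in root), so these 2 shares cannot be compared with each other.

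**Figure D1:**
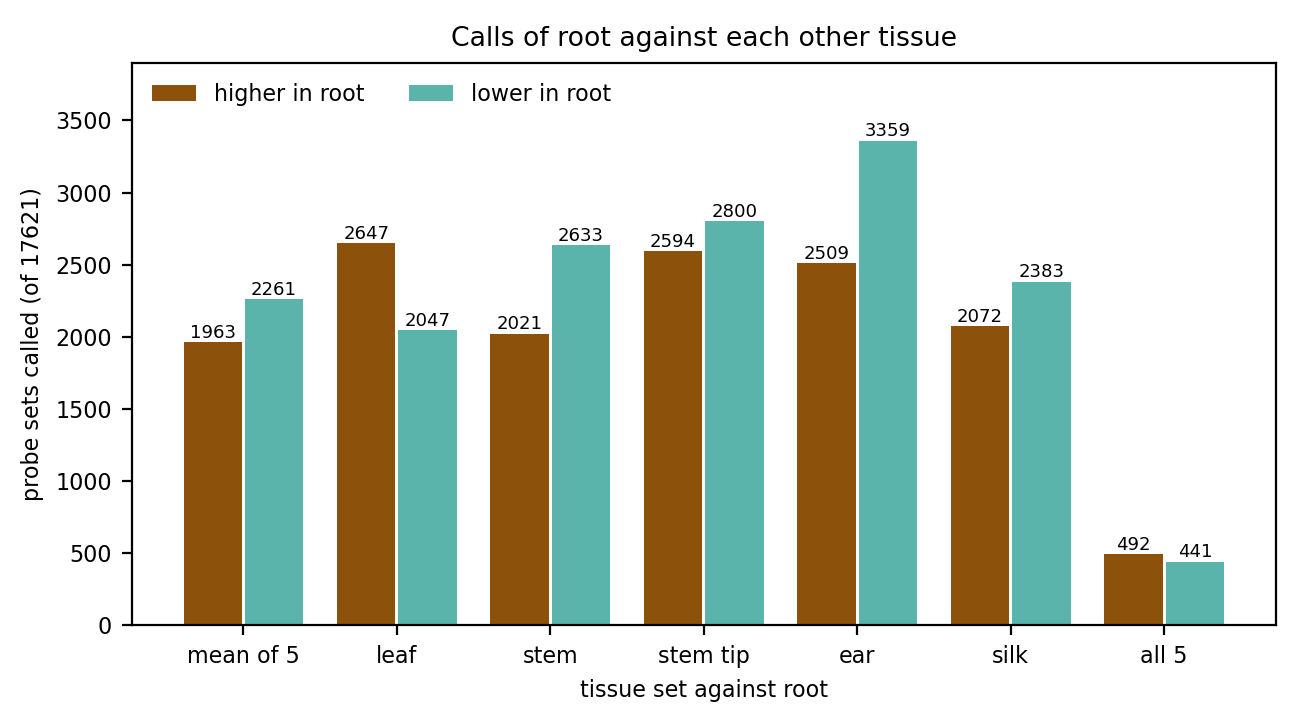
Number of probe sets called higher (brown) and lower (teal) in root against the mean of the 5 tissues, against each tissue and against all 5 at once, with each count above its bar. Lower calls outnumbered higher ones against the mean and against each tissue except leaf (2647 higher, 2047 lower), an order that changed with other scalings of the arrays.

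Leaf was at the extreme of the other tissues in many calls of both directions. In 989 of the 1963 higher calls (50.4%) leaf had the highest mean of the 5 other tissues, against 31.3% over all probe sets, and in 303 leaf exceeded root itself. Leaf had the lowest mean of the 5 in 1144 of the 2261 lower calls (50.6%, against 34.8% over all probe sets), and in 779 it lay below root as well. Silk was the highest of the 5 in 503 higher calls (25.6%, against 21.8% over all probe sets). Root had the highest mean of the 6 tissues in 1463 higher calls (74.5%, against 19.1% over all probe sets). It had the lowest in 1311 lower calls (58.0%, against 17.5% over all probe sets). A call in that direction by itself makes this rank more likely. These shares describe the calls and carry no test.

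Genes of nutrient uptake were led by nrt2 and nas1. nrt2 (GRMZM2G010280) encodes a high-affinity nitrate transporter. Its signals were 981, 2353 and 2578 in root replicates 1, 2 and 3, against 25.4 to 46.4 (median 29) on the other 15 arrays, and the groups did not overlap. The log2 fold was 5.85 (SE 0.23, adjusted p = 1.56e-11), at least 18.1-fold higher. nas1 (GRMZM2G385200) encodes nicotianamine synthase, the first step towards phytosiderophores. Its probe set with the largest fold read 589, 1154 and 3040.0 in root, against 36.9 to 58.4 (median 41.9) elsewhere, a log2 fold of 4.82 (SE 0.30, adjusted p = 2.23e-09), at least 12.7-fold higher. Both genes were lowest in root replicate 1, and without that array their log2 folds were 6.29 and 5.38. A pair of further nas1 probe sets also rose, with log2 folds of 3.04 and 2.26, while the fourth was not called, at 0.26. In the list of iron, zinc and other metal uptake, 5 of 13 probe sets (38.5%, against 11.1% of all probe sets) were called higher and none lower, and 3 of the 5 read nas1. The other higher calls, named after their values were seen, were ys1, the transporter of iron-phytosiderophore complexes, and mtl2. ys1 read 126, 134 and 342 in root, against 37.3 to 144 (median 59.2), with a log2 fold of 1.44 (SE 0.24, adjusted p = 1.09e-04), at least 1.73-fold higher. Of 10 probe sets for transport of nitrate, phosphate and potassium, 2 were higher and 2 lower (20.0% each, against 11.1% and 12.8% of all probe sets). The second higher one was the phosphate transporter pht1 (GRMZM2G326707). It read 4758, 5692 and 5003 in root and 7183 ± 315 (mean ± SD, n = 3) in leaf, and the other 4 tissues spanned 262 to 3051. Root lay below leaf in this gene and above the other tissues, and the log2 fold against leaf was -0.48 (adjusted p = 0.357), against 4.14 for stem tip. Both lower calls were potassium channel genes. ZMK2 read 148, 180.4 and 142 in root, against 267 to 1076 (median 611), with a log2 fold of -1.89 (SE 0.17, adjusted p = 2.65e-07), while K2.1 was called on means under 100 on both sides.

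Among water channel genes more were higher than lower in root. Of 33 aquaporin probe sets, 11 were called higher (33.3%, against 11.1% of all probe sets) and 2 lower (6.06%, against 12.8%), with a list median of 0.39. PIP1-5 (GRMZM2G081843), a plasma membrane aquaporin, had the largest fold. It read 2913, 9144 and 9684 in root, 3239, 3010.2 and 3767 in leaf and 44.8 to 247 in the other 4 tissues. Root replicate 1 lay below the 3 leaf arrays and the other root arrays above them. The log2 fold against the 5 tissues was 5.22 (SE 0.35, adjusted p = 5.57e-09), and against leaf alone 0.94 (adjusted p = 0.106). TIP1-2 (GRMZM2G168439), of the vacuolar membrane, read 378, 3134 and 2683 in root, against 21.4 to 120.2 (median 33.9), with a log2 fold of 5.10 (SE 0.46, adjusted p = 1.99e-07), at least 14.4-fold higher. TIP2-3 (GRMZM2G125023) read 524, 1987 and 2558, against 46.3 to 91.8 (median 72.1). The log2 fold of TIP2-3 was 4.32 (SE 0.32, adjusted p = 2.12e-08), at least 13.9-fold higher. In both TIP genes every root array exceeded every other array, yet replicate 1 held less than the other root arrays. The lower calls were NIP1-1 and NIP2-2 of the NIP subfamily, whose members pass small solutes. NIP1-1 averaged 446 ± 102 in root and 7328 ± 650.3 in silk (n = 3 each). NIP2-2, related to silicon channels, averaged 193 ± 142 in root and 9905 ± 779.9 in leaf, and its call was lost with leaf left out of the mean (log2 fold -0.81). Without root replicate 1 the list had 12 higher and 3 lower calls and a median of 0.70. In replicate 1, 15 of the 33 probe sets were at least 2-fold below the mean of replicates 2 and 3, and 2 at least 2-fold above. Over the array, 1737 of 14036 probe sets with a root signal of at least 100 were below and 1314 above.

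The list of peroxidases and phenylpropanoid synthesis had the highest median of the lists with at least 2 probe sets, 2.24. Of its 11 probe sets, 7 were higher (63.6%, against 11.1% of all) and 1 lower (9.09%, against 12.8%). Secreted class III peroxidases couple lignin precursors in the wall. pox2 (GRMZM2G040638) read 3127, 3004 and 3367 in root, against 46.1 to 89.0 (median 55.0), and had a log2 fold of 5.78 (SE 0.11, adjusted p = 3.35e-15), at least 31.6-fold higher. Its 3 root arrays lay close together. ap1 (GRMZM2G108219, also named Px11) read 1648, 1886 and 2770.2, against 31.5 to 69.1 (median 37.9). The log2 fold of ap1 was 5.66 (SE 0.19, adjusted p = 2.18e-12), at least 20.5-fold higher. PER66 (GRMZM2G133475) read 76.0, 1533 and 1654, against 14.3 to 28.6 (median 21.0). Replicate 1 lay under a signal of 100 and only just above the other tissues, and the log2 fold of 4.87 (SE 0.60) was 6.34 without it. The methyltransferase gene pOMT1 read 527, 533 and 919 in root, against 965 to 6330.2 (median 1311). Its log2 fold of -1.39 was -0.93 and no longer called with leaf left out. zrp4, an O-methyltransferase gene first found in maize root, read 987, 5464 and 4206 in root and 252 to 3000.2 (median 324) elsewhere. Its replicate 1 lay within the range of stem and silk, and the log2 fold was 2.37 (SE 0.40, adjusted p = 1.48e-04), or 3.13 without it.

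Of 43 probe sets for wall proteins and wall synthesis, 10 were higher (23.3%, against 11.1% of all probe sets), 9 lower (20.9%, against 12.8%) and 24 not called, with a median of 0.42. bk2 (GRMZM2G109326), the COBRA-like gene of the brittle stalk mutant, acts in secondary walls. It read 2566, 3604 and 4760.0 in root and 52.2, 2071 and 351 in stem, and spanned 41.6 to 179 in the other 4 tissues. This gave a log2 fold of 5.09 (SE 0.63, adjusted p = 6.15e-06). cesa10 (GRMZM2G445905) encodes a cellulose synthase of secondary walls. It had 1105, 4436 and 4992 in root, 353, 3759 and 1562 in stem and 31.8 to 323 in the remaining tissues, with a log2 fold of 3.96 (SE 0.51, adjusted p = 9.59e-06). Root and stem overlapped in cesa10, and the contrast with stem gave 1.19 (adjusted p = 0.157). expB7, a β-expansin gene, read 1579, 3958 and 2897 in root and 4505, 4846 and 4198 in silk, and 53.5 to 115 elsewhere. Expansins loosen growing walls. The lower calls included the expansins expB8 and EXPA5 and the proline-rich protein gene prp2. expB8 averaged 499 ± 73.4 in root and 9559 ± 375 in silk, EXPA5 658 ± 449 and 9631 ± 701, and prp2 109 ± 10.2 and 7161 ± 1590.2, with prp2 at 8974 ± 1875 in ear. Their log2 folds against the 5 tissues were -2.63, -2.0 and -3.92. Without root replicate 1 the list had 13 higher and 9 lower calls.

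Of 36 probe sets of defence proteins, terpenoid synthesis and protease inhibitors, 17 (47.2%, against 11.1% of all probe sets) were called higher in root and none lower, with a median of 0.87. tps6 (GRMZM2G127087) encodes a sesquiterpene synthase of β-macrocarpene. It read 3282, 2097 and 2983 in root, 927, 774 and 347 in leaf and 9.11 to 197 in the other tissues. The log2 fold was 6.06 (SE 0.51, adjusted p = 9.45e-08), at least 18.1-fold higher. an2 (GRMZM2G044481) encodes an ent-copalyl diphosphate synthase, which opens the route to diterpenoid defence compounds. It had 1523, 803 and 1091 in root, against 25.1 to 292 (median 34.1), and a log2 fold of 4.54 (SE 0.20, adjusted p = 3.98e-11), at least 9.28-fold higher. Leaf was next to root in both genes. PR-1 (GRMZM2G465226), a pathogenesis-related protein gene, was lower in root than in leaf on every array, and its probe set can also read related genes. It read 6734, 3960.1 and 4459 in root and 10641, 7784 and 7957 in leaf, and 53.9 to 372 in the other 4 tissues. Its log2 fold against the 5 tissues was 4.56 (SE 0.36, adjusted p = 5.00e-08), and -0.82 (adjusted p = 0.177) against leaf alone. Without root replicate 1 this list had 13 higher calls and 1 lower. In replicate 1, 11 of the 36 probe sets were at least 2-fold above replicates 2 and 3, and none at least 2-fold below. Over the array, 1314 of 14036 probe sets with a root signal of at least 100 were above and 1737 below.

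Jasmonate and oxylipin enzymes were counted apart in a list made after their values were seen. These enzymes turn fatty acids into the wound hormone jasmonate and related oxylipins, and all 14 of their probe sets also stand in the defence list. Of the 14, 8 (57.1%, against 11.1% of all probe sets) were higher and none lower, and all 14 folds were above 0, with a median of 1.87. lox3 (GRMZM2G109130), a 9-lipoxygenase gene, read 7367, 4111 and 3369 in root and 104 to 1765 (median 239) elsewhere, with a log2 fold of 3.94 (SE 0.35, adjusted p = 1.59e-07). opr3 (GRMZM2G156712), of the oxo-phytodienoate reductase family, was read by a probe set that can also read related genes. It had 3668, 829 and 1002 in root, against 28.1 to 169 (median 38.2), and a log2 fold of 4.93 (SE 0.30, adjusted p = 2.37e-09), at least 13.7-fold higher. Replicate 1 was 4.02-fold above the mean of replicates 2 and 3, and the fold without it was 4.26. opr1, of the same family, read 14173, 2989 and 3180.3 in root and 6158, 4946 and 6853 in leaf. It stood at 117 to 436 in the other 4 tissues, and only replicate 1 exceeded leaf. Its log2 fold was 3.93 (SE 0.41, adjusted p = 1.08e-06), against 3.19 without replicate 1. All 8 calls of the list stood without that array, and its median was then 1.6.

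The glutathione S-transferase family joins glutathione to reactive compounds and is known for detoxifying herbicides in maize. Of 35 probe sets, 16 (45.7%, against 11.1% of all probe sets) were higher. The 5 lower ones (14.3%) were near the 12.8% of all probe sets. gst42 (GRMZM2G025190) was the brightest of those named and read 11400.2, 8392 and 9166 in root, against 122 to 1025 (median 214). Its log2 fold was 5.26 (SE 0.19, adjusted p = 5.49e-12), a 38.3-fold difference, with leaf next at 859 ± 146. gst18 (GRMZM2G019090) had 2784, 1255 and 1291 in root, 510.1, 361 and 256 in leaf and 8.47 to 128 in the other tissues. The log2 fold of gst18 was 5.75 (SE 0.43, adjusted p = 2.12e-08), at least 12.6-fold higher. gst35 (GRMZM2G161891) read 1661, 479 and 352, against 15.9 to 80.7 (median 23.1), with a log2 fold of 4.53 (SE 0.30, adjusted p = 4.97e-09), at least 6.54-fold higher. gst18 and gst35 were highest in replicate 1. The lower members gst41, GST38 and gst10 averaged 416 ± 104, 356 ± 139 and 713 ± 318 in root. gst41 reached 6740.4 ± 506 in ear and GST38 3329 ± 839 in silk, and gst10 was 3222 ± 106 in ear, with log2 folds against the 5 tissues of -2.26, -2.09 and -2.02. Root lay below all 15 other arrays in gst10 alone of these 3. Without root replicate 1 the family had 14 higher and 3 lower calls, and on that array 11 of the 35 were at least 2-fold above and 7 at least 2-fold below replicates 2 and 3. Over the array, 1314 of 14036 probe sets with a root signal of at least 100 were above and 1737 below.

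Of 42 probe sets for auxin, cytokinin and other hormones, 12 (28.6%, against 11.1% of all probe sets) were higher and 1 lower (2.38%, against 12.8%). ciszog1 (GRMZM2G168474) encodes an O-glucosyltransferase of cis-zeatin, a cytokinin. It read 1824, 1364 and 1220.4 in root, against 21.6 to 451 (median 89.1), with a log2 fold of 4.06 (SE 0.28, adjusted p = 1.11e-08), at least 11.2-fold higher. psk1, which encodes a precursor of the growth peptide phytosulfokine, had 1933, 812 and 629.9 in root and 32.1 to 565 (median 70.5) elsewhere, and a log2 fold of 3.47 (SE 0.37, adjusted p = 1.29e-06), at least 7.43-fold higher. The cytokinin response regulator RR6 read 1657, 720.4 and 494, against 47.0 to 499 (median 228), and root replicate 3 lay under ear replicate 3, the highest of the other arrays. The single lower call was abp1 (GRMZM2G116204), an auxin-binding protein gene. It read 502, 1572 and 1059 in root and 1653 to 9689 (median 6906) elsewhere, with a log2 fold of -2.54 (SE 0.23, adjusted p = 1.73e-07).

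Of 34 probe sets of nitrogen and sulfur assimilation, 7 were higher (20.6%, against 11.1% of all probe sets), 5 lower (14.7%, near the 12.8% of all) and 22 not called. GLN6 (GRMZM2G050514), a cytosolic glutamine synthetase gene, read 5102, 6917 and 9516 in root and 5345, 6065 and 7157 in leaf, with 135 on average in ear. GLN6 had a log2 fold of 2.94 (SE 0.25, adjusted p = 8.75e-08). gln2, another gene of the enzyme, went the other way, with 473, 351 and 274 in root, 545 to 4244 (median 2449.9) elsewhere and a log2 fold of -2.47 (SE 0.20, adjusted p = 5.69e-08). The lower calls also held fdx2, a ferredoxin gene, and L-FNRII, a leaf type of ferredoxin-NADP+ reductase. fdx2 read 42.9, 35.7 and 33.7 in root and averaged 12266 ± 1360.3 in leaf. L-FNRII had 187, 269.8 and 268 in root, against 1974 to 15906 (median 2914). The sat genes encode serine acetyltransferase, which feeds cysteine synthesis. sat2 read 921, 5340.5 and 3814 in root and sat1 5065, 251 and 289. Replicate 1 was low in sat2 and 18.8-fold above the other root arrays in sat1, whose log2 fold of 2.61 was 1.20 without it. The fold of sat2 was 2.5 with all arrays and 3.26 without replicate 1.

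Of 28 probe sets of low-oxygen response and fermentation, 5 (17.9%, against 11.1% of all probe sets) were higher and none lower. The haemoglobin gene Hb (GRMZM2G067402), whose class binds oxygen and nitric oxide, read 6558, 7748 and 6282 in root, against 325 to 3010.1 (median 1141). Its log2 fold was 2.65 (SE 0.20, adjusted p = 2.74e-08) and the root arrays agreed. pdc1 encodes pyruvate decarboxylase, which opens the ethanol pathway. One of its probe sets read 6783, 261 and 193 in root, against 21.4 to 259.5 (median 59.1), and replicates 2 and 3 overlapped stem. Its log2 fold of 3.58 (SE 0.67) was 1.94 without replicate 1, and the other pdc1 probe set was not called, at 0.50. A probe set of sh1, a sucrose synthase gene, read 453, 433 and 343 in root and overlapped stem tip (679, 149.8 and 79.2).

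Among genes outside these lists, the named gene with the largest fold was cyclotide, which encodes a small peptide of a plant defence family. It read 13352, 14004 and 13535 in root, against 11.6 to 444 (median 68.1), and the root arrays nearly coincided. The log2 fold was 7.71 (SE 0.33, adjusted p = 3.75e-11), at least 101-fold higher. In the seed its highest mean was 3633 in embryo 25 DAP. Several probe sets of IIG1 (GRMZM2G477685) followed. The first read 3795, 1645 and 8651 in root and 1181, 189 and 881 in silk, and 6.65 to 61.1 in the other tissues, with a log2 fold of 6.65 (SE 0.51, adjusted p = 3.06e-08), at least 26.6-fold higher. Of 5 IIG1 probe sets among the 20 largest folds, 3 are of a kind that can also read related genes, so they are not independent readings. A MADS-box gene, zmm2 (GRMZM2G316366), was low in signal but well apart. It read 297, 241 and 147 in root, against 4.94 to 21.3 (median 7.12), and its log2 fold was 4.71 (SE 0.24, adjusted p = 2.91e-10), at least 2.19-fold higher. The largest folds of all belonged to probe sets without a gene name. Zm.244.2.A1_at read 11519, 14534 and 14488 in root, against 20.1 to 32.1 (median 23.1), and Zm.2681.1.A1_at read 11428, 5497 and 4632, against 12.2 to 37.5 (median 19.0). Their log2 folds were 9.15 and 8.37, of uncertain size because every signal outside root lay under 100.

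**Figure D2:**
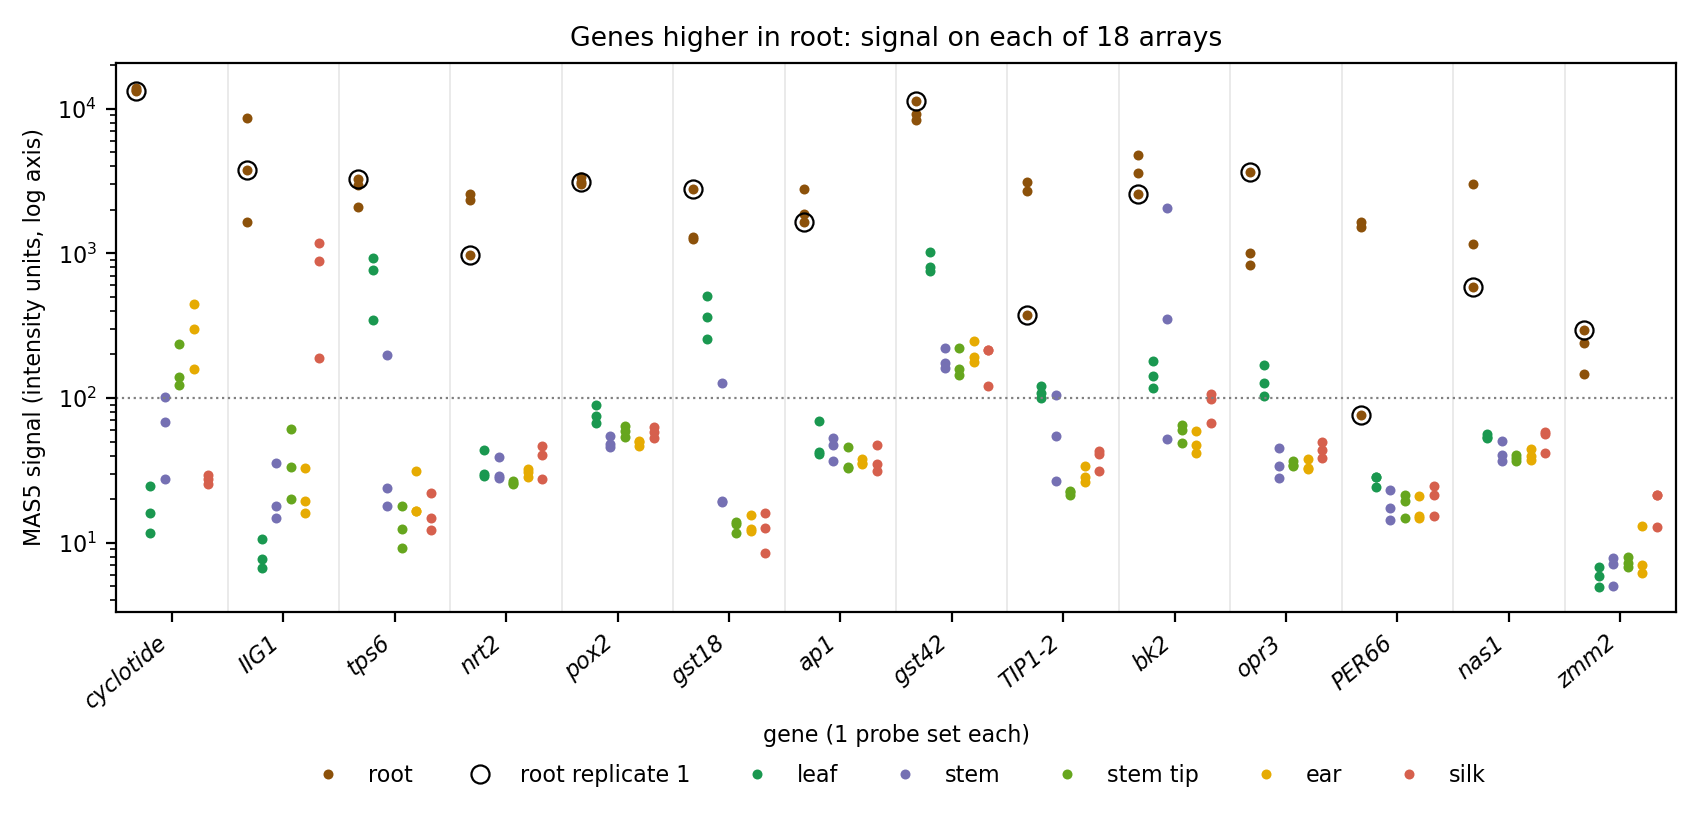
Signal on each of the 18 arrays (log axis) for the 14 genes of largest fold among those higher in root with no overlap, 1 probe set per gene, with root at the left of each group and root replicate 1 circled. All root points lie above all others, and replicate 1 lies well below the other root points in TIP1-2 and PER66 and above them in opr3.

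Most of the photosynthesis list was lower in root. Of its 35 probe sets, 28 (80%, against 12.8% of all probe sets) were lower in root and none higher, with a median of -3.94. Cab-m7, a chlorophyll a/b-binding protein gene, read 79.7, 37.4 and 143 in root, against 4493 to 19408 (median 10833). Its log2 fold was -7.09 (SE 0.27, adjusted p = 8.19e-12), at least 91.3-fold lower. psan1 (GRMZM2G080107), a subunit of photosystem I, had 83.1, 73.9 and 112 in root, against 1628 to 21106 (median 6159.9). OEE3 (GRMZM2G021617), of the oxygen-evolving complex, had 145, 188 and 146, against 2146 to 17564 (median 5263). The log2 folds were -6.11 and -5.18. por, which encodes protochlorophyllide reductase of chlorophyll synthesis, read 189.7, 129 and 153 in root, against 4051 to 9367 (median 5173), a log2 fold of -5.18 (SE 0.14, adjusted p = 1.37e-13). The other antenna genes lhcb6 and Lhcb5-2 had log2 folds of -5.17 and -5.13, and the 4 lhcb6 probe sets ranged from -5.17 to -0.09. gpb1, a chloroplast glyceraldehyde phosphate dehydrogenase gene, read 119, 83.0 and 92.6 in root, against 922 to 18384 (median 2292). TPT, the triose phosphate translocator gene, read 88.5, 97.0 and 139, against 711 to 16035 (median 1397). sig6 and sig2B encode sigma factors of the plastid RNA polymerase, and trm1 a plastid thioredoxin. Their log2 folds were -4.73, -4.72 and -4.92, with root arrays between 17.2 and 56.6. In 24 of the 28 the root arrays lay below all 15 others, against 748 of the 2261 lower calls over the array (33.1%). The 7 probe sets not called were 5 of pdk1, 1 of ME1 and 1 of lhcb6, the first pair being genes of the C4 cycle. Without root replicate 1, 29 were lower.

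**Figure D3:**
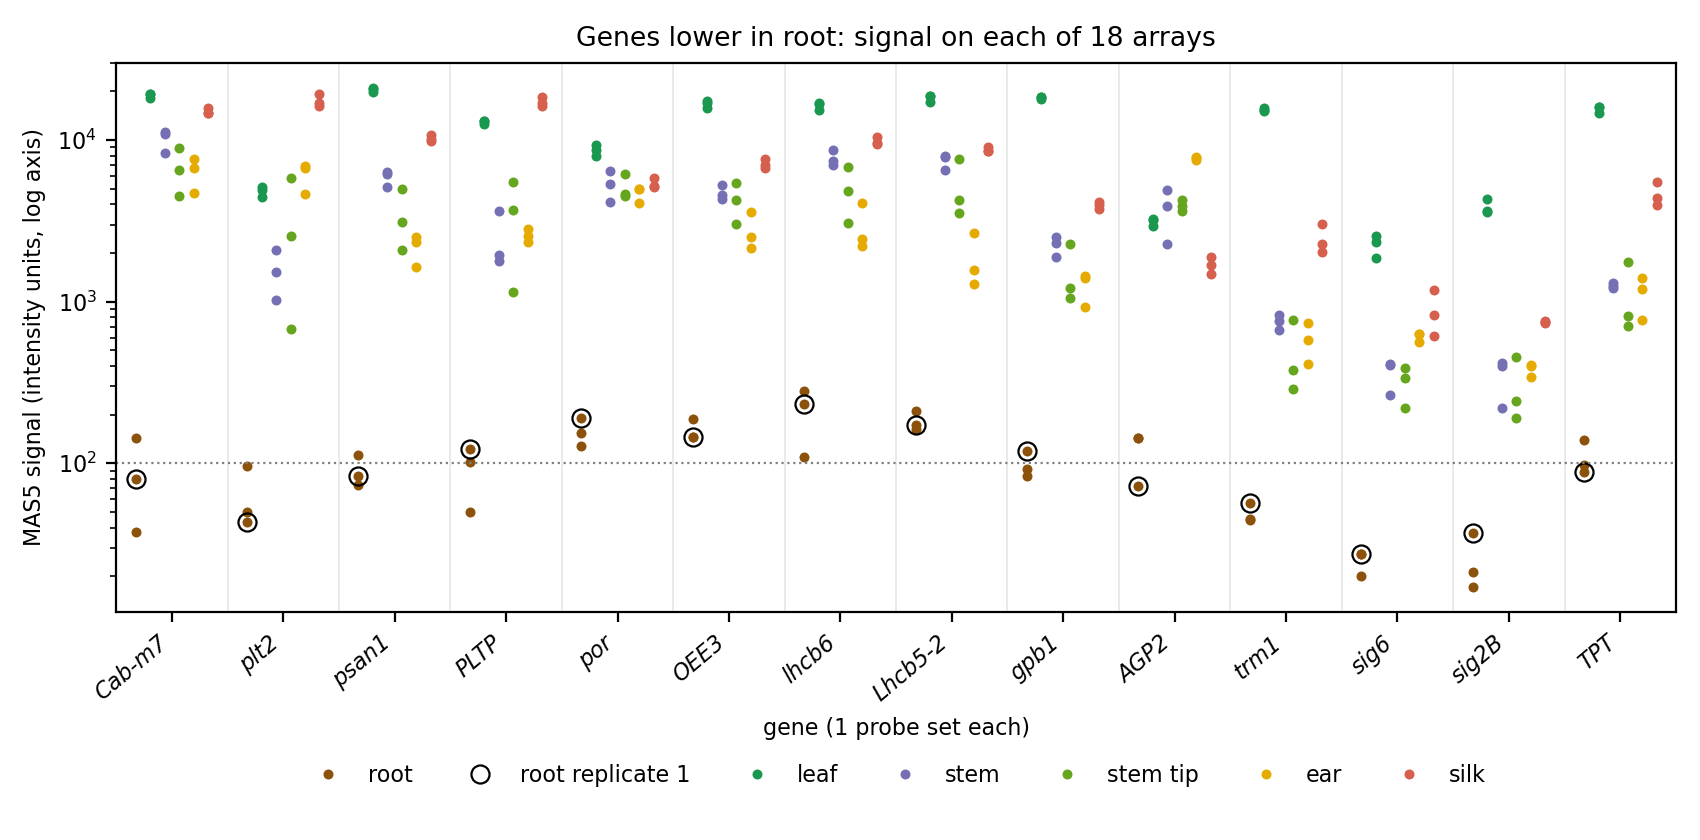
Signal on each of the 18 arrays (log axis) for the 14 genes of largest fold among those lower in root with no overlap, drawn as for the higher genes. Root points lie between 17.2 and 278, under every point of the other tissues, and leaf has the highest mean of the other tissues in 11 of the 14.

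Further large lower folds lay outside the list. plt2 (GRMZM2G010868), a phospholipid transfer protein gene, read 43.5, 49.7 and 95.5 in root, against 681 to 19178 (median 4886), with a log2 fold of -6.21 (SE 0.41, adjusted p = 5.57e-09), at least 43.8-fold lower. Silk was its highest tissue at 17401 ± 1573. PLTP, of the same protein class, read 123, 50.3 and 102 in root, against 1148 to 18368 (median 3671), and its probe set can also read related genes. AGP2 (GRMZM2G027955) had 72.6, 143 and 143 in root, against 1484 to 7887 (median 3654), a log2 fold of -4.96 (SE 0.20, adjusted p = 1.87e-11). Among probe sets without a gene name, Zm.14596.3.S1_at read 44.7, 34.7 and 62.5 in root, against 2670.1 to 12901 (median 4859), and Zm.3153.2.S1_x_at 27.7, 21.4 and 29.6, against 1427 to 11071 (median 2285).

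More regulators of meristem and flower were lower than higher in root. Of 17 probe sets of the KNOX and shoot meristem list, 7 were lower (41.2%, against 12.8% of all probe sets) and 3 higher (17.6%, against 11.1%). kn1 (GRMZM2G017087), the homeobox gene that maintains the shoot meristem, read 102, 72.0 and 91.0 in root, 4347, 5284 and 5441 in stem, 1598, 5805 and 319 in stem tip and 3832, 4548 and 2750.4 in ear. In leaf and silk it averaged 90.8 and 127, so that root sat with those tissues. The YABBY genes yab10 and ZYB15, whose family marks lateral organs, averaged 26.7 ± 8.23 and 59.2 ± 3.12 in root and 2603 ± 168 and 1606 ± 207 in ear. The KNOX relatives lg3 and lg4b were called higher against the mean, but only leaf and silk were low. lg3 read 616, 1077 and 932 in root, 37.9 on average in leaf and 48.6 in silk, against 2377 in stem, and its log2 fold against stem was -1.47 (adjusted p = 0.0608). Its call against the mean was lost without root replicate 2 (log2 fold 1.29, adjusted p = 0.0824) or 3 (1.39, adjusted p = 0.0627). The WOX gene ns1 was called on signals of 243, 43.4 and 40.2, where only replicate 1 passed 100. MADS-box genes, which specify floral organs, had 16 of 24 probe sets lower (66.7%, against 12.8% of all) and 2 higher (8.33%, against 11.1%), with a median of -1.85. The lower calls named were M7, zmm6 and ZMM2. M7 read 13.4, 16.1 and 13.2 in root, 4842 ± 359.8 in ear and 9286 ± 799 in silk. zmm6 averaged 29.2 ± 4.59, 3688 ± 503 and 6974 ± 1223 in those tissues, and ZMM2 10.3 ± 4.88, 1147 ± 185 and 2510.2 ± 694. ZMM2 (GRMZM2G359952) is another gene than zmm2. Leaf, stem and stem tip also averaged under 100 in all 3 genes, so root stood with those tissues. The second higher call was zmm19 (GRMZM2G370777, tunicate1), with 2000.5, 4185 and 3561 in root, 4787 in leaf and 126 in ear, which was lost with ear (log2 fold 0.45) or silk (0.73) left out of the mean.

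Of 34 probe sets of cell cycle genes and histones, 10 (29.4%, against 12.8% of all probe sets) were lower and none higher. The cyclin gene cyc2 read 112, 151 and 141 in root and averaged 1405 ± 86.2 in stem tip and 101 in leaf. mad2, of the spindle checkpoint, and cenH3, the centromeric histone, averaged 276 ± 75.9 and 247 ± 16.6 in root and 2661 ± 156 and 2664 ± 297 in stem tip. Root lay near silk and below stem, stem tip and ear in these genes, and above leaf in mad2. The log2 folds against the 5 tissues were -1.68, -1.61 and -1.57. Without replicate 1 the list had 8 lower calls.

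Heat shock genes had 5 of 13 probe sets lower (38.5%, against 12.8% of all probe sets) and 1 higher (7.69%, against 11.1%). hsp101 (GRMZM2G360681), a disaggregating chaperone gene, read 394, 88.5 and 138 in root, against 573 to 7428 (median 2529.5), and hsp18f, a small heat shock protein gene, 291, 269 and 256, against 705 to 11267 (median 1604). Stem was their highest tissue, at 6550.4 ± 1168 and 8748 ± 2577, and hsp18c had a log2 fold of -2.34. The heat shock factor gene hsfb was higher, at 1876, 1113 and 1044 in root and 1145, 938 and 1348 in leaf, which overlapped. Of 6 benzoxazinoid probe sets, 3 were lower (50%, against 12.8% of all) and 1 higher (16.7%, against 11.1%). bx6 (GRMZM6G617209), a dioxygenase gene of this defence pathway, read 472, 345 and 310.0 in root, against 719.8 to 6537 (median 4931), with a log2 fold of -3.34 (SE 0.16, adjusted p = 1.25e-10). The β-glucosidase gene glu1 passed the fold of 2 by little (log2 fold 1.06) and read 15601, 10954 and 14348 in root and 14379, 11736 and 15778 in ear. glu2, of the same enzyme class, was called lower on means under 100 on both sides. glu1 was not called without root replicate 1, at 0.96.

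Ribosomal proteins had no probe set higher and 1 of 28 lower (3.57%, against 12.8% of all probe sets), with a median of -0.02. That call was L29, which read 281, 429.7 and 632 in root, against 2085 to 7519.9 (median 2697), with a log2 fold of -2.89 (SE 0.16, adjusted p = 6.19e-10). No zein was called among 14 probe sets. Of 15 probe sets of embryo storage proteins, 2 were higher (13.3%, near the 11.1% of all probe sets). These were glb3 at 165, 152 and 182 in root, against 50.5 to 76.2 (median 59.4), and a dehydrin3 probe set at 13749.7, 8753 and 8289, against 2852 to 7352 (median 5049). dehydrin3 missed a fold of 2 without root replicate 1 (log2 fold 0.81), and glb3 with signals under 100 taken as 100 (0.73). In anthocyanin synthesis a2 alone was called of 11 probe sets (9.09%, near the 11.1% of all), with 4298, 3013 and 2838 in root and 2939.9 ± 260.0 in silk. In the list of WRKY, NAC, MYB and bHLH regulators 1 of 10 was called higher (10.0%, near the 11.1% of all). This was MYB38_1, with 3273, 717 and 945 in root, against 108 to 385 (median 196), while the other probe set of that gene stood at 0.42.

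**Figure D4:**
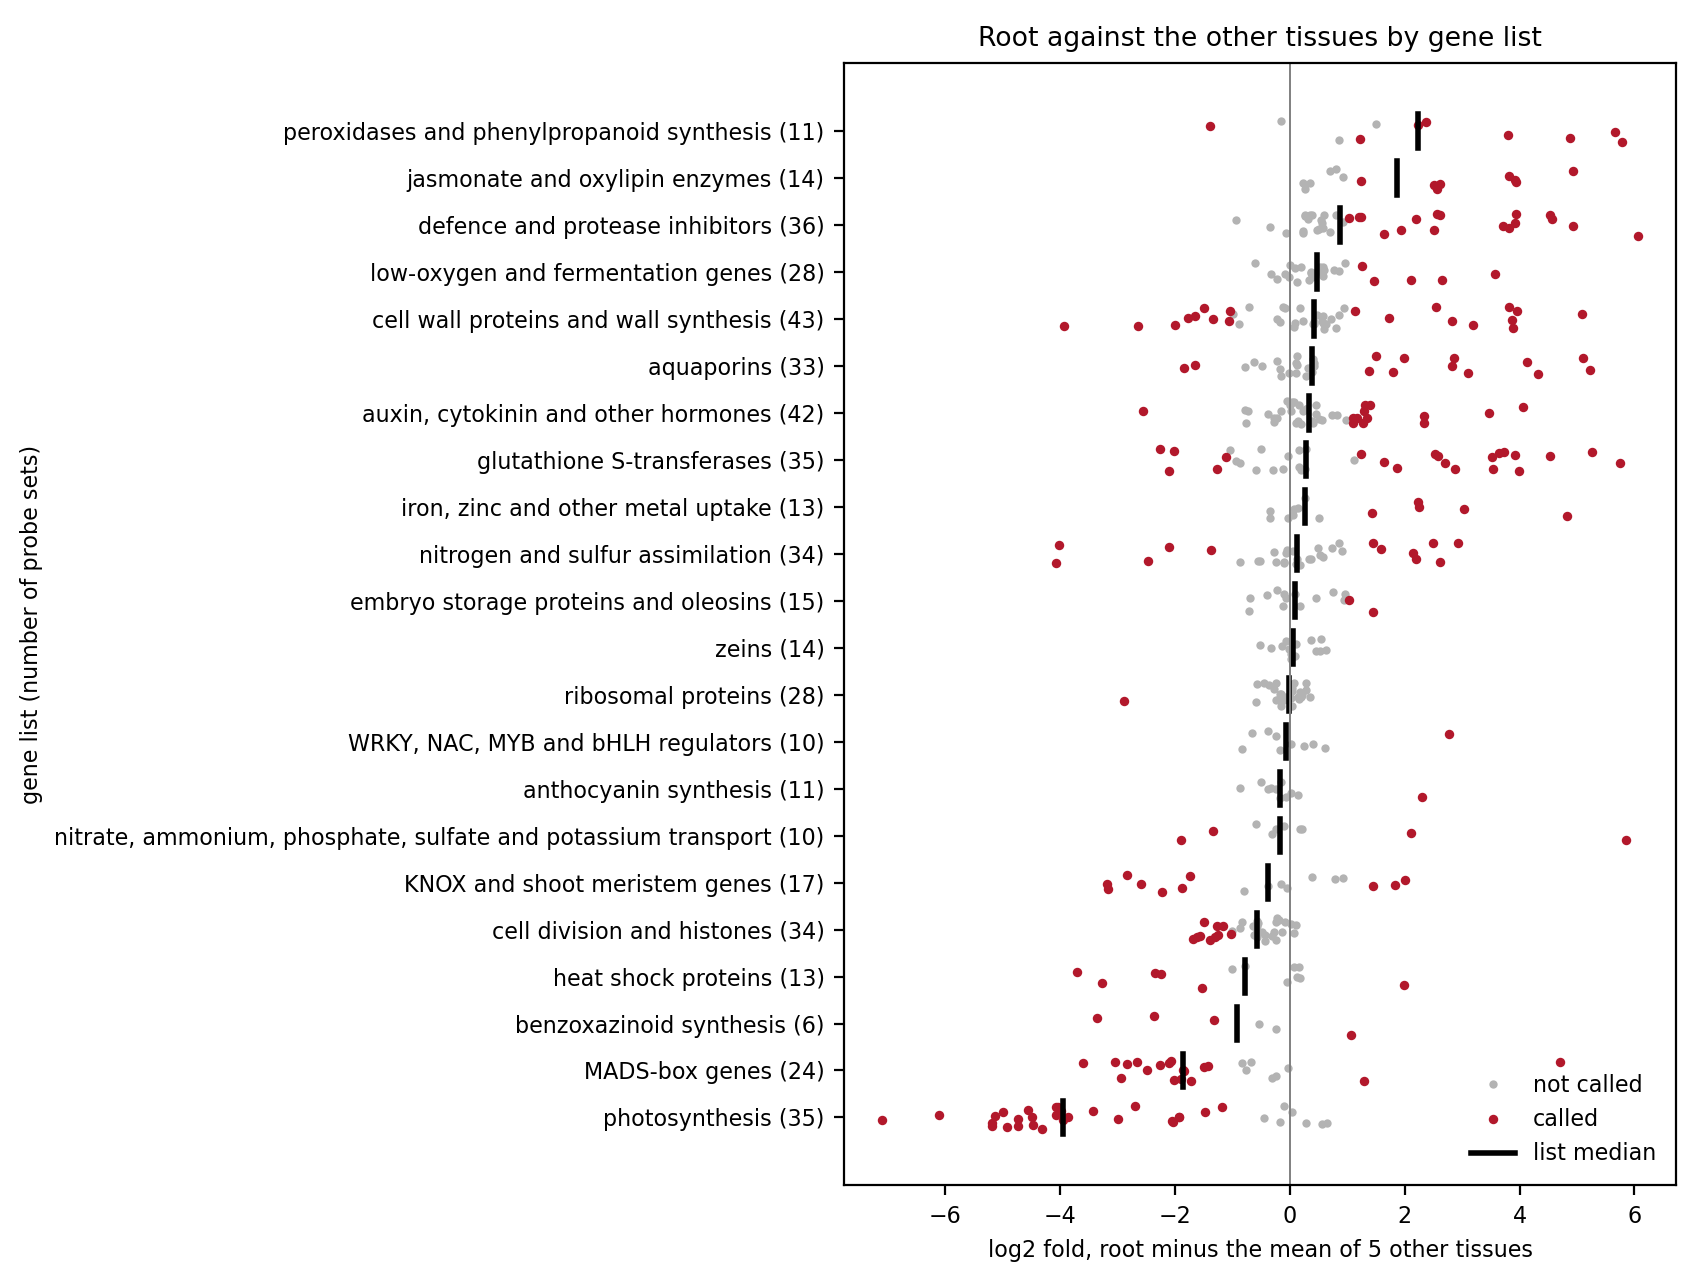
Log2 fold of root minus the mean of the 5 other tissues for each probe set of 22 lists with at least 2 probe sets, ordered by list median (black line), with called probe sets in red and the others in grey. Photosynthesis lies lowest (median -3.94) and peroxidases and phenylpropanoid synthesis highest (2.24), while aquaporins, glutathione S-transferases and wall genes have medians near 0 with called members far to the right.

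Root replicate 1 departed from its replicates in many single genes. Of 14036 probe sets with a signal of at least 100 on some root array, replicate 1 was at least 2-fold above the mean of replicates 2 and 3 in 1314 and at least 2-fold below in 1737 (21.7% together). The same count gave 8.66% for replicate 2 and 8.09% for replicate 3, and at most 11.2% for any array of the other 5 tissues. The named genes with the largest excess in replicate 1 were pdc1, RIP, Amy2, sat1 and PG14. RIP, a ribosome-inactivating protein gene, read 10908, 524 and 1197 in replicates 1, 2 and 3, with a log2 fold against the other tissues of 2.97, or 1.71 without replicate 1. Amy2, a β-amylase gene, read 2602, 103 and 234 and fell under the threshold without that array (0.67). PG14, a polygalacturonase gene, was not called and read 178, 13.4 and 16.8. The largest deficits were in PER66, expB3, bx1, PIP2-2 and gst14. expB3, a β-expansin gene, read 298, 4354 and 3601, and its log2 fold of 0.60 (SE 0.56, adjusted p = 0.401) was 1.85 without replicate 1, past the threshold (adjusted p = 4.48e-04). bx1, the entry step of benzoxazinoid synthesis, read 59.8, 228 and 1348, PIP2-2 150.0, 1302 and 1372 and gst14 136, 1378 and 1039. None of these last 3 was called against the other tissues, and without replicate 1 the log2 fold was 0.84 in place of -0.23 for bx1, 0.58 in place of -0.47 for PIP2-2 and 0.02 in place of -1.03 for gst14. Replicates 2 and 3 lay on the same side of replicate 1 in all 10 genes, which the choice of these genes by that gap nearly fixed in advance. Ribosomal protein signals did not move with replicate 1, with no probe set 2-fold apart and a median difference of 0.02. The 3′ to 5′ log2 ratio of the ef1a control was 2.04 on replicate 1 and 1.62 and 1.77 on replicates 2 and 3. That of the control named actin was 0.73 on replicate 1 and 1.21 and 2.27 on replicates 2 and 3. The part of either ratio in these differences was not tested.

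**Figure D5:**
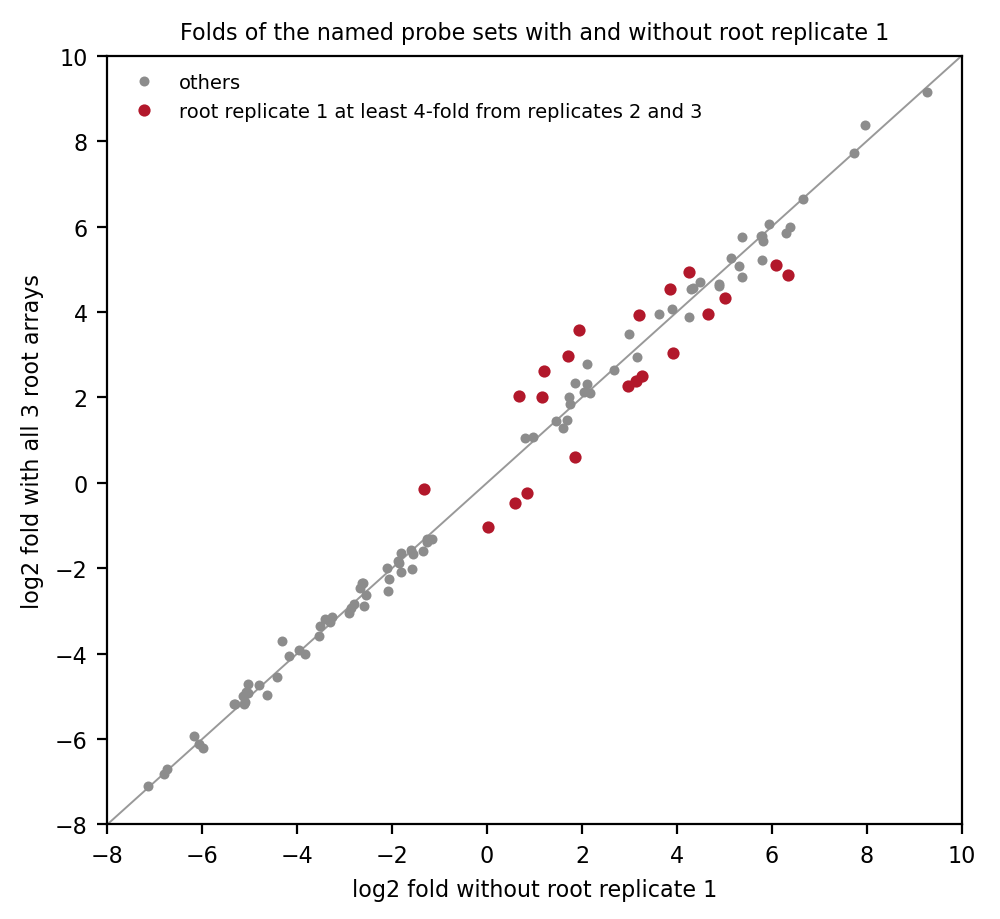
Log2 fold of root against the 5 tissues with all 3 root arrays (vertical) and without root replicate 1 (horizontal) for the 107 named probe sets, with a line of equality. The 21 probe sets with replicate 1 at least 4-fold from the mean of replicates 2 and 3 (red) lie farther from the line than most others, and no probe set past a log2 fold of 4 in size comes near 0 on the other axis.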

How the data were processed

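The authors hybridised total RNA, extracted with Trizol and labelled with a 3′ in vitro transcription kit, to a maize expression array. Values were deposited as MAS5 signal, a linear intensity per probe set on each array, credited to the submitters' processing notes without a version, and its scaling target is not given in the sources used here. Trimmed mean signals ran from 894 (endosperm 10 DAP replicate 1) to 1253 (leaf replicate 2), and lay close together on the root arrays (1219 to 1224). Whether all arrays had been scaled to a common target was not tested. Arrays have no read depth, and their number limits the precision.

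Log2 signals of the 18 arrays were fitted by tissue with limma 3.58.1 (R 4.3.3; eBayes with an intensity trend, two-sided), leaving out 113 control probe sets. The contrasts were root minus the equally weighted mean of 5 tissues and root minus each tissue, with Benjamini-Hochberg adjustment over 17621 probe sets. The script was tested on simulated data. Tables used Python 3.11.15, pandas 2.3.3 and numpy 2.4.6, and plots matplotlib 3.10.9. Seed arrays served only to place single genes.

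Probe sets were named through the platform annotation and RefSeq symbols. Of 1452 probe sets tied to 1 gene, 1377 matched RefSeq and 1260 have a symbol, for 970 genes. The other maize probe sets are given by their ID. The gene lists were built from symbols, synonyms and titles, without a set test. Named genes were the 20 higher and 15 lower folds of largest size with no overlap between root and the other arrays, the 3 largest called folds per list and direction, the 2 largest per direction without a gene name, and the 5 per direction that root replicate 1 set apart most. The members, lists and tests were chosen with earlier results of these data known. The lists were extended by family name, and the jasmonate list added, after values were seen. Alternatives were other scalings, 32 added to each signal, probe sets kept only with at least 3 arrays at 100 or more, other variance models, array weights, all 42 arrays, other fold thresholds, a replicate block, the 3′ to 5′ ratio as covariate, arrays or tissues left out and signals under 100 taken as 100. The last of these, and the fit over 42 arrays without root replicate 1, were added after seeing the data.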

Additional observations from a re-analysis of the deposited data

Results flagged for a closer look

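The direction of 3 list genes depended on the tissue that root was set against, and the difference between the contrasts, which share the root arrays, was not tested. The log2 fold of sat1, a serine acetyltransferase gene, was 4.69 against stem and -2.94 against leaf, with 5065, 251 and 289 in root replicates 1, 2 and 3. The log2 fold of NIP2-2, a solute channel gene, was 1.31 against ear and -5.98 against leaf, with 164, 67.4 and 347 in root. The log2 fold of mad2, of the spindle checkpoint, was 1.61 against leaf and -3.16 against stem, with 189, 330.1 and 309 in root. Groups of 3 arrays are too small for an outlier test of single samples.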

How the results depend on the processing

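Of 107 named probe sets, 102 were called, 90 of those kept their call under all settings tried for them and none of the called changed direction. The settings counted here leave out the other fold thresholds. At a fold of at least 4, smaller calls such as ZMK2 (log2 fold -1.89) and cyc2 (-1.68) would be lost. Calls were lost mainly for folds near 2 (glu1, dehydrin3), for signals near or under 100 (glu2, K2.1, ns1, lg4b, glb3) and where leaf, ear or silk left the mean (NIP2-2, pOMT1, zmm19, lg3). Without a fold threshold the counts higher and lower were 3842 and 4929 against the mean, 4235 and 3243 against leaf, 3290 and 4637 against stem, 4006 and 4847 against stem tip, 3978 and 5428 against ear, 3410 and 4156 against silk, and 747 and 795 against all 5. At a fold of at least 4 they were 852 and 735, 1141 and 1123, 936 and 1061, 1353 and 1141, 1216 and 1443, 928 and 958, and 229 and 164 in the same order, and 418 and 395 among calls with no overlap. Centring on hybridization controls gave 1221 higher and 4787 lower against stem and 4521 lower against stem tip. The 3′ to 5′ ratio as covariate gave 1285 higher against silk. The cause of these 2 changes was not tested. Centring on medians moved the median log2 fold of all probe sets to 0.07, against -0.05 as deposited and -0.14 with hybridization controls, and list medians near 0 (regulators, ribosomal proteins, zeins, embryo storage) changed sign with these. Leaving out single arrays, one replicate number, or root 1, stem 2 and ear 3 together gave 1864 to 2060 higher and 2030 to 2464 lower against the mean, 2079 to 2822 and 1878 to 2165 against leaf, 1635 to 2385 and 2162 to 3054 against stem, 2443 to 2687 and 2613 to 2943 against stem tip, 2233 to 2613 and 3141 to 3449 against ear, 1652 to 2196 and 2097 to 2496 against silk, 379 to 554 and 383 to 479 against all 5, and 636 to 715 and 718 to 767 with no overlap. The replicate numbers did not pair the samples (median r of deviations 0.06 over 45 same-numbered pairs), and a replicate block gave 1972 higher and 2259 lower. Signals under 100 give only bounds.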

Other observations

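The following genes were chosen after their values were seen and stand for no list. GBSSIIa, a granule-bound starch synthase gene, read 41.3, 37.9 and 85.9 in root, against 66.5 to 4594 (median 2388), and its log2 fold was -4.74 (SE 0.34, adjusted p = 1.68e-08), at least 14.0-fold lower. ss1, a soluble starch synthase gene, had 315, 227 and 249 in root, against 1591 to 5071 (median 2776), with a log2 fold of -3.50 (SE 0.15, adjusted p = 3.09e-11). The branching enzyme genes ae1 and sbe1 had log2 folds of -2.31 and -2.21, and the ADP-glucose pyrophosphorylase gene bt2 -2.41. Both probe sets of sh2, another gene of that enzyme, were not called, with signals mostly under 100 in root and elsewhere.

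Genes with higher signal in root were chosen in the same way. MST1, a monosaccharide transporter gene, read 12771, 8328 and 8696 in root and 8541, 9093 and 7739.6 in leaf and 33.9 to 209 in the other 4 tissues, with a log2 fold of 5.63 (SE 0.25, adjusted p = 5.65e-11) against the 5 tissues and 0.21 (adjusted p = 0.649) against leaf. Its probe set can also read related genes. aox3, which encodes an alternative oxidase of mitochondria, read 3446, 1532 and 1256 in root and 2199.9, 2200.4 and 1707 in leaf and 17.7 to 1050.5 elsewhere. The aldehyde oxidase gene AO2 read 1358, 339 and 336 in root, against 14.8 to 249 (median 29.2), with replicate 1 the highest. Log2 folds without that array were 3.91 for aox3 and 2.73 for AO2.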
